A study of Homo sapiens with 12 samples.

Results

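The RNAs described here are the small nucleolar RNAs and small Cajal body RNAs that gave a signal in SH-SY5Y cells after MATR3 was depleted. SH-SY5Y is an established human neuroblastoma cell line, and MATR3 (Matrin3) is an RNA- and DNA-binding protein of the nuclear matrix that takes part in splicing. Members were the gene-level transcript clusters of the array that carry 1 gene symbol beginning with SNORD, SNORA or SCARNA, without the SNORD113 and SNORD114 copies, and with a mean log2 signal of at least 7.2 over all 6 samples. The rule took 137 of 67528 clusters. These stand for 118 symbols, since 19 of the clusters are repeat copies on alternative haplotypes, and 1 cluster per symbol was used below. Of the 118, 70 are box C/D RNAs, 38 are box H/ACA RNAs and 10 are Cajal body RNAs.

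The line was kept in 15% serum. One group received an siRNA against MATR3 and the other a negative control siRNA, in each case by electroporation (1100 V, 50 ms), with RNA extraction after 48 h. Each group had 3 replicates, summarised by the authors at gene level and again at exon level, with 100 ng of total RNA as input to each labelling. Both groups are thus the same line, electroporated in the same way, and differ only in the siRNA. The labels give neither the number of siRNA sequences nor whether the replicates were separate cultures, so the p-values below speak for the scatter among these 6 samples alone, and that scatter may be technical.

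Box C/D RNAs pair with ribosomal or spliceosomal RNA and position the methyltransferase fibrillarin for 2′-O-methylation. Box H/ACA RNAs position the pseudouridine synthase dyskerin in the same manner, and Cajal body RNAs of either kind, or of both joined, guide modification of spliceosomal RNAs. A few members modify nothing that is known and instead take part in cleaving the ribosomal RNA precursor. Most human members are cut out of the introns of host genes after splicing, so a cell can make a member only where its host is transcribed. Hosts range from protein genes, many of them for ribosomal and translation proteins, to noncoding RNAs whose spliced exons have no coding role.

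Many hosts begin transcription at a run of pyrimidines, the 5′ terminal oligopyrimidine start, and the host starts below are shown because SNORD60 and SNORD14D, the members called below, the U14 copies and SNORD63, the member with the largest difference, come from them. Each line holds 10 bases before and 20 bases from the RefSeq start, on the transcribed strand of GRCh38.p14, and the capitals mark the first 5 transcribed bases.
SNHG19 (host of SNORD60, chr16:2155339-2155368, minus strand): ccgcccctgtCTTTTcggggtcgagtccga
HSPA8 (host of SNORD14D, chr11:123062117-123062146, minus strand): ggaaaccggtCTCATtgaactcgcctgcag
RPS13 (host of SNORD14A and SNORD14B, chr11:17077648-17077677, minus strand): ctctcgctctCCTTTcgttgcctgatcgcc
HSPA9 (host of SNORD63, chr5:138575382-138575411, minus strand): ggaggtttccAGAAGcgctgccgccaccgc
SNHG19 and RPS13 open with C followed by 4 bases that are each C or T, while HSPA8 and HSPA9 do not. This form, searched on the transcribed strand only, was found at 17 of the 60 host genes that the start table holds (28.3%) and at 1404 of all 27305 genes in it (5.14%). The 21 members of hosts with such a start had a median difference of 0.10 (log2, MATR3 siRNA minus control), and the 68 members of the other listed hosts had 0.05. A match of these letters is a description of the annotated start and says nothing of how the start is used.

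The values are log2 signals, so 1 unit is a 2-fold step, and a signal says little about the amount of one RNA against another because each cluster has its own probes. The brightest of the 23 background probe sets on each array averaged 7.17 over the arrays. The median background probe set lay between 3.49 and 3.81. The targeted gene was measured on a cluster shared by MATR3 and its neighbour SNHG4. Its signal was 11.21, 10.53 and 10.52 in the MATR3 siRNA samples and 12.25, 11.75 and 11.68 in the controls. It was lower by 1.14 ± 0.09 (SD of 3 pair differences), which leaves 45.4% of control. The groups did not overlap. The first replicate of each group differed from the remaining arrays: these 2 correlated at 0.9955 with each other and at 0.981 to 0.986 with the rest, against 0.9902 or more among the rest. Array set below means replicate 1 against replicates 2 and 3, fitted as a block, and results are given with it, without it and with the replicate number as the block. Sympathoadrenal markers were high, with mean signals of 16.6 for DBH, 14.1 for GATA3, 12.3 for HAND2, 10.0 for PHOX2A and 9.22 for CHGB, whereas TH, which makes catecholamines together with DBH, was at 4.76. Some of these markers moved with the siRNA: with the array set as block DBH was lower by 0.84 ± 0.21 (adjusted p = 0.020), ISL1 was higher by 0.54 ± 0.19 (adjusted p = 0.038) and STMN2 was higher by 0.37 ± 0.10 (adjusted p = 0.047). None of the 3 was called without a block or with the replicate block, and their part in the differences of the small RNAs was not tested. EPCAM, GFAP, COL1A1, ALB, PTPRC and PECAM1, which mark other cell types, lay between 3.96 and 5.26.

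Members were selected on the mean log2 signal over all 6 samples, so the signal is given as a description. Of the 134 C/D symbols on single-symbol clusters 70 reached the level, as did 38 of the 64 H/ACA symbols and 10 of the 21 Cajal body symbols. SNORD90 at 7.21 and SNORA50C at 7.29 lay just inside, and SCARNA8 at 7.13 and SNORD121A at 7.05 just outside. Signals spanned the range up to SNORD13 (U13, which takes part in maturation of the small ribosomal subunit RNA), at 18.36, 19.03 and 18.98 in the MATR3 siRNA samples and 18.54, 19.05 and 19.09 in the controls. SNORD13 differed by -0.10 ± 0.08 (adjusted p = 0.307), and its groups overlapped. Only 2 members had a group mean under the highest background value, namely SNORD88A at 7.14 with MATR3 siRNA against 7.55 in the controls and SNORD90 at 6.72 against 7.70. Another 109 clusters carry a small RNA symbol beside another gene's symbol, and these were not used.

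**Figure D1:**
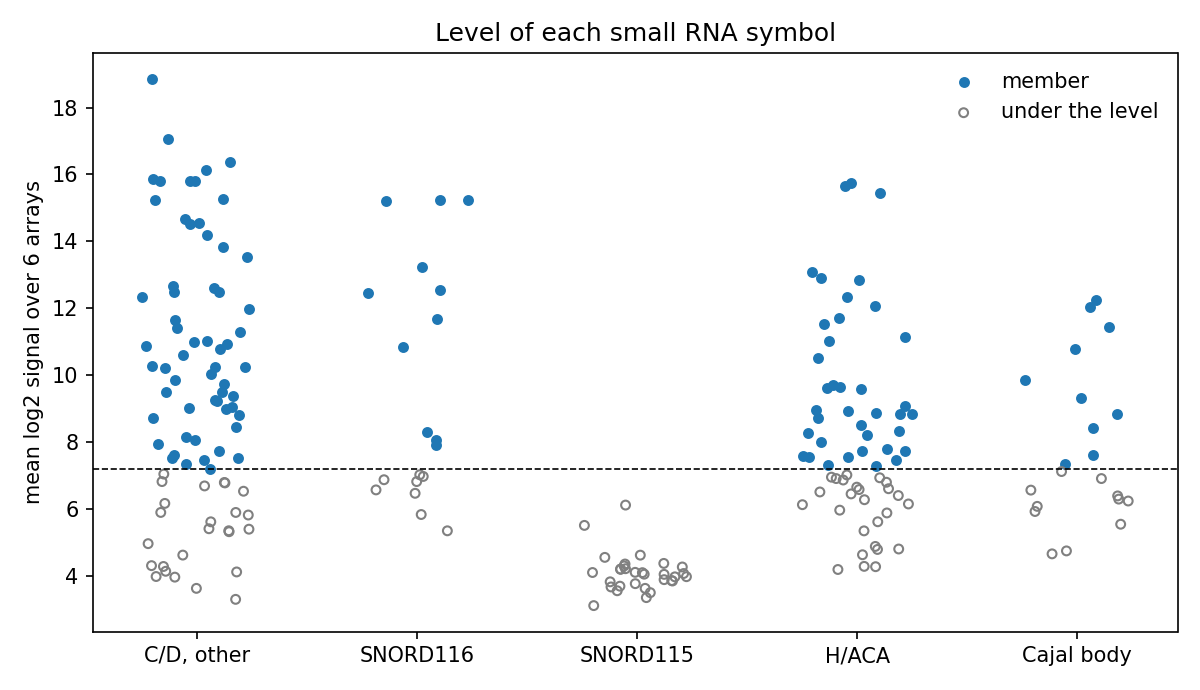
Mean log2 signal over 6 arrays (vertical axis) of each small RNA symbol by class (horizontal axis, with points spread sideways for legibility). Filled points are the 118 members, open points lie under the dashed level of 7.2, and all 31 SNORD115 symbols are open while 11 of the 19 SNORD116 symbols are filled.

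MATR3 depletion was set against control siRNA to ask which of these RNAs differ when the protein is low. Without a block no member was called by limma at an adjusted p under 0.05, where 0 of 33782 clusters tested were called (0%), and 1 member and 316 clusters had an unadjusted p under 0.05. The targeted cluster of MATR3 and SNHG4 was not called in that limma fit either (unadjusted p = 0.004), so the lack of a call there says little about a member. With the array set as block, on single-symbol clusters alone, 2 members were called, SNORD60 and SNORD14D, both lower with MATR3 siRNA. The set of clusters tested thus changed along with the block, and the same block on all 33782 clusters called no member. The 2 called are 1.69% of the 118, beside 530 of the 15209 single-symbol clusters tested (3.48%), of which 214 were lower (1.41%) and 316 higher (2.08%). Among the 8720 of these clusters at or above the members' level of 7.2, 401 were called (4.6%), 150 of them lower. With the replicate number as block no member was called, beside 8 of 15209 clusters (0.0526%), and 15 members (12.7%) had an unadjusted p under 0.05, against 20.4% of the clusters. With the array set as block an unadjusted p under 0.05 was found for 14 members (11.9%) and for 3627 clusters (23.8%). Across these fits the share of members called was close to, or below, the share of all clusters called in the same direction. Under some other settings, given at the end, it was above the share of all clusters. In bulk RNA, fewer cells of a kind and less RNA per cell cannot be told apart. The probes also cannot separate a mature small RNA from the intron or precursor that holds it.

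Over all 118 members the median of the mean pair difference was 0.04, and over all 15209 clusters it was also 0.04. Differences lay above 0 for 65 members and below 0 for 52, and the middle 50% ran from -0.17 to 0.17. The H/ACA median was 0.13 (28 of 38 above 0), the Cajal body median was 0.17 (7 of 10 above 0) and the C/D median was -0.05 (40 of 70 below 0). The C/D direction turned without replicate 1: in replicates 2 and 3 alone the C/D median was 0.08, with 41 of 70 above 0, and the median of all members was 0.19. Without the MATR3 siRNA sample of replicate 2 the median of all members was -0.10 and that of the H/ACA RNAs -0.02. Quantile normalization moved the median of all clusters to -0.01, and median centring moved it to -0.04. The member median was then -0.00 and -0.04, the C/D median -0.08 and -0.12, the H/ACA median 0.10 and 0.06, and the Cajal body median 0.13 and 0.09. A difference of at least 1.5-fold was seen for 7 members, 3 of them C/D and 4 H/ACA, and for 165 of the 15209 clusters. The pair differences of a member also scattered more than those of other clusters: their SD had a median of 0.40 over the members and 0.12 over all clusters.

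Among the C/D RNAs, SNORD60 guides methylation of the large ribosomal subunit RNA and lies in the noncoding host SNHG19 on chromosome 16. Its signal was 15.19, 14.95 and 14.79 with MATR3 siRNA and 15.69, 15.39 and 15.49 in the controls. Every MATR3 siRNA sample lay below every control sample, at 68.5% of control. The difference was -0.55 ± 0.14 (SD, n = 3 pairs; adjusted p = 0.024 with the array set as block and 0.067 with the replicate block). Leaving out any 1 sample raised its adjusted p to between 0.055 and 0.133.

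SNORD14D is one of the copies of U14, which pairs with the small subunit RNA precursor and is needed for its cleavage in yeast. It lies in HSPA8, the gene of a constitutive heat shock chaperone. Its signal was 12.47, 11.33 and 11.09 with MATR3 siRNA and 12.93, 12.11 and 12.04 in the controls. It was lower in all 3 pairs, while the groups overlapped because both replicate 1 values were the high ones. The difference was -0.73 ± 0.25 (adjusted p = 0.034 with the array set as block and 0.074 with the replicate block), at 60.3% of control, and leaving out any 1 sample gave an adjusted p of 0.067 to 0.167.

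The other U14 copies among the members lie in the ribosomal protein gene RPS13. SNORD14A was at 10.75, 10.01 and 9.73 with MATR3 siRNA and 11.27, 9.99 and 9.63 in the controls, a difference of -0.13 ± 0.34 (adjusted p = 0.663). SNORD14B was at 9.45, 9.46 and 9.37 against 9.72, 9.57 and 9.41, a difference of -0.14 ± 0.12 (adjusted p = 0.314). Neither passed the test. SNORD14E lies in HSPA8 like SNORD14D but was under the level, at a mean of 6.79. It differed by -0.17 ± 0.19 (adjusted p = 0.260). The difference between the copies was not tested. The U14 copies are close in sequence, so probes of one may read another, and their separate values are uncertain.

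The largest member differences were those of SNORD63 and SNORD90, and neither passed the test. SNORD63, which lies in the mitochondrial chaperone gene HSPA9, was at 10.06, 8.33 and 7.59 with MATR3 siRNA and 11.83, 9.12 and 8.61 in the controls. The difference was -1.19 ± 0.51 (adjusted p = 0.076), at 43.7% of control and with the lower value in the MATR3 siRNA sample of every pair. SNORD90, in the ubiquitin ligase gene RC3H2, was at 7.31, 6.62 and 6.23 against 9.0, 7.05 and 7.04, a difference of -0.98 ± 0.65 (adjusted p = 0.079). Its lower values were in the range of the background probe sets. SNORD90 met the level of 7.2 only through the controls, with a mean of 7.70 there and 6.72 with MATR3 siRNA. Its difference is thus tied to the selection and is given as a description. The same holds for SNORD88A, with means of 7.14 with MATR3 siRNA and 7.55 in the controls.
SNORD41, in the nuclear import receptor gene TNPO2, went the other way, at 16.16, 16.25 and 16.51 with MATR3 siRNA and 15.91, 16.04 and 15.95 in the controls. The groups did not overlap and the difference was 0.34 ± 0.19 (adjusted p = 0.088), short of the threshold. SNORD60 and SNORD41 were the 2 members whose groups did not overlap (1.69% of 118), beside 340 of 15209 clusters (2.24%) and 128 of the 8720 clusters at or above 7.2 (1.47%).

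**Figure D2:**
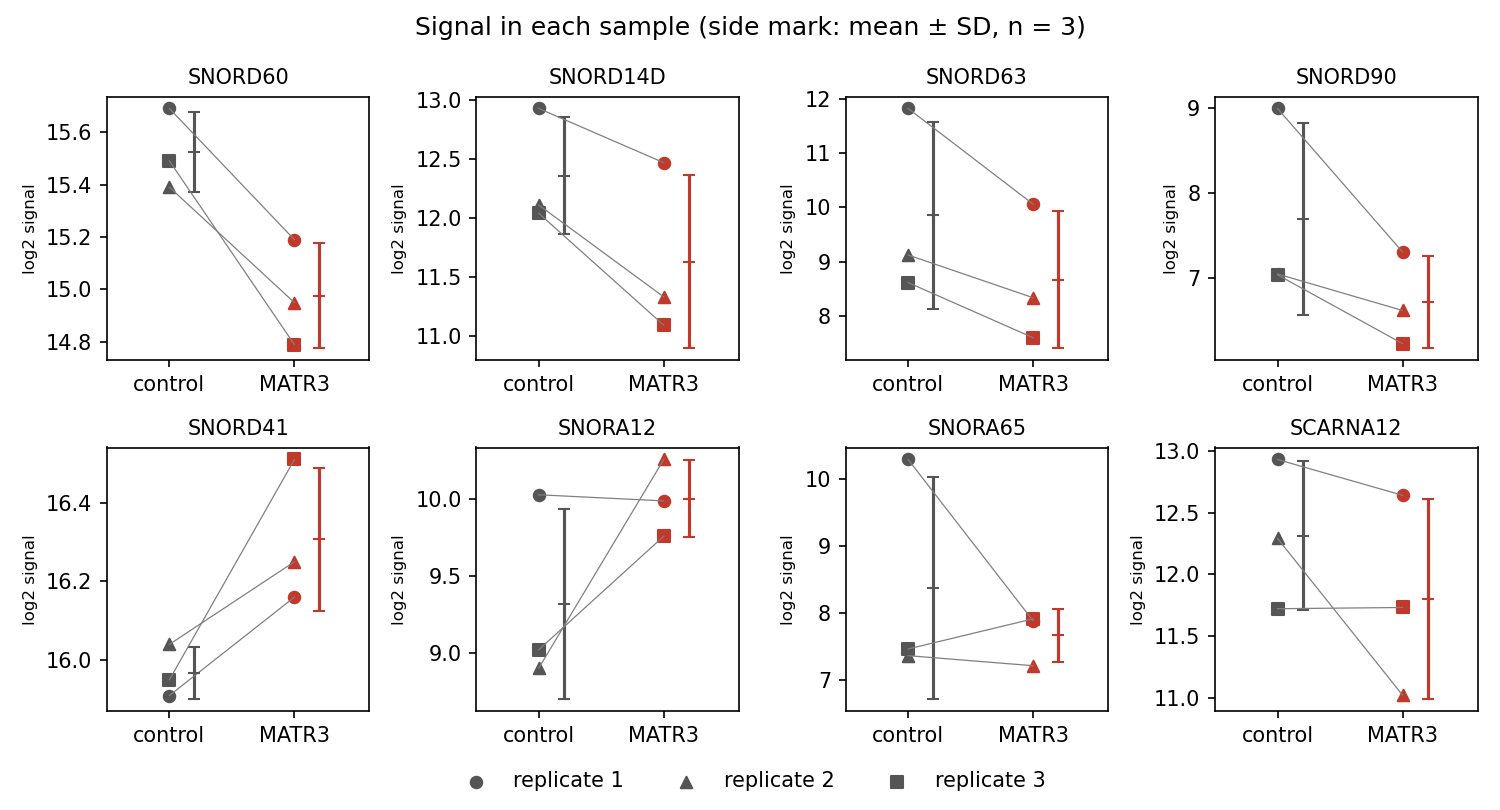
Log2 signal (vertical axes, each with its own range) of 8 members in the control and MATR3 siRNA samples, with a grey line joining samples of the same replicate number and side marks for the mean ± SD of 3. SNORD60 and SNORD41 separate the groups, SNORD14D, SNORD63 and SNORD90 are lower in every pair, and in SNORA65 the control of replicate 1 at 10.29 stands alone.

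The C/D RNAs with the highest differences above 0 were SNORD72, SNORD53 and SNORD97. SNORD72, which lies in RPL37, was at 10.37, 9.77 and 9.70 with MATR3 siRNA and 10.67, 9.53 and 8.39 in the controls (0.42 ± 0.82, adjusted p = 0.513). SNORD53 was at 9.29, 9.45 and 8.88 against 9.71, 8.27 and 8.57 (0.36 ± 0.80). SNORD97 was at 12.92, 13.09 and 12.37 against 13.47, 12.10 and 11.74 (0.36 ± 0.81). In each of the 3 the replicate 1 pair ran opposite to the other pairs, and no difference exceeded its spread. SNORD105B, among the brightest C/D members, was at 17.07, 17.07 and 17.03 against 17, 17.22 and 17.02, a difference of -0.02 ± 0.11.

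The U3 RNA takes part in the first cleavages of the ribosomal RNA precursor and is not an intron product. SNORD3A was at 16.07, 16.19 and 16.53 with MATR3 siRNA and 16.91, 16.41 and 16.20 in the controls, a difference of -0.24 ± 0.59 (adjusted p = 0.515). The MATR3 siRNA value was the lower one in pairs 1 and 2 and the higher one in pair 3. SNORD3B-1 and SNORD3B-2 held identical values on their clusters (-0.17 ± 0.70), SNORD3C gave -0.31 ± 0.60 and SNORD3D gave -0.12 ± 0.68. None passed, and these copies are nearly the same RNA, so they are 1 measurement rather than several. U8 (SNORD118), U22 (SNORD22) and U17 (SNORA73A and SNORA73B), which also act in cleavage, were not among the members.

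Among the H/ACA RNAs no member passed the test in any of the 3 fits, while the direction of their differences turned with the replicate. In the replicate 1 pair 35 of 38 were lower with MATR3 siRNA, with a median of -0.36, and in pairs 2 and 3 the medians were 0.47 and 0.41. The same sequence of signs, lower in pair 1 and higher in both others, was seen for 27 of 38 H/ACA RNAs (71.1%), 6 of 10 Cajal body RNAs (60.0%), 25 of 70 C/D RNAs (35.7%) and 2077 of all 15209 clusters (13.7%). Quantile normalization left 24 H/ACA RNAs with it (63.2%) against 6.72% of all clusters, and median centring left 21 (55.3%) against 4.16%. Both rescalings were made on the same arrays, and no test of these shares was made.
The replicate 1 control was where H/ACA signals were high. The H/ACA median was 10.22 there and 8.47 and 8.44 in the other controls, beside 9.38, 8.97 and 8.64 with MATR3 siRNA. Replicate 1 minus the mean of replicates 2 and 3 had an H/ACA median of 1.29 in the controls and 0.46 in the MATR3 siRNA samples. The same medians were 1.39 and 0.70 over Cajal body RNAs, 1.035 and 0.695 over C/D RNAs, and 0.63 and 0.62 over all clusters. The high control of replicate 1 was thus not particular to H/ACA RNAs. In replicates 2 and 3 alone 33 of 38 H/ACA RNAs lay above 0, with a median of 0.41, beside a median of 0.05 over all clusters. No cluster was called in those 4 samples, and 38 of the 118 members (32.2%) had an unadjusted p under 0.05, against 24.8% of all clusters.
Other short RNAs, looked at after their values were seen, were also mostly lower in pair 1, beside 6479 of all 15209 clusters. Of 166 clusters of spliceosomal, Y, 7S and 5S RNAs and their pseudogenes 153 were lower in pair 1, with pair medians of -0.41, 0.21 and -0.05. Of 116 microRNA clusters 93 were lower in pair 1, with medians of -0.25, 0.14 and 0.03. The full sequence of signs, lower in pair 1 and higher in both others, was seen for 54 of the 166 and 35 of the 116. RNA was purified on a column, and what part recovery of short RNA had in these values was not tested.

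**Figure D3:**
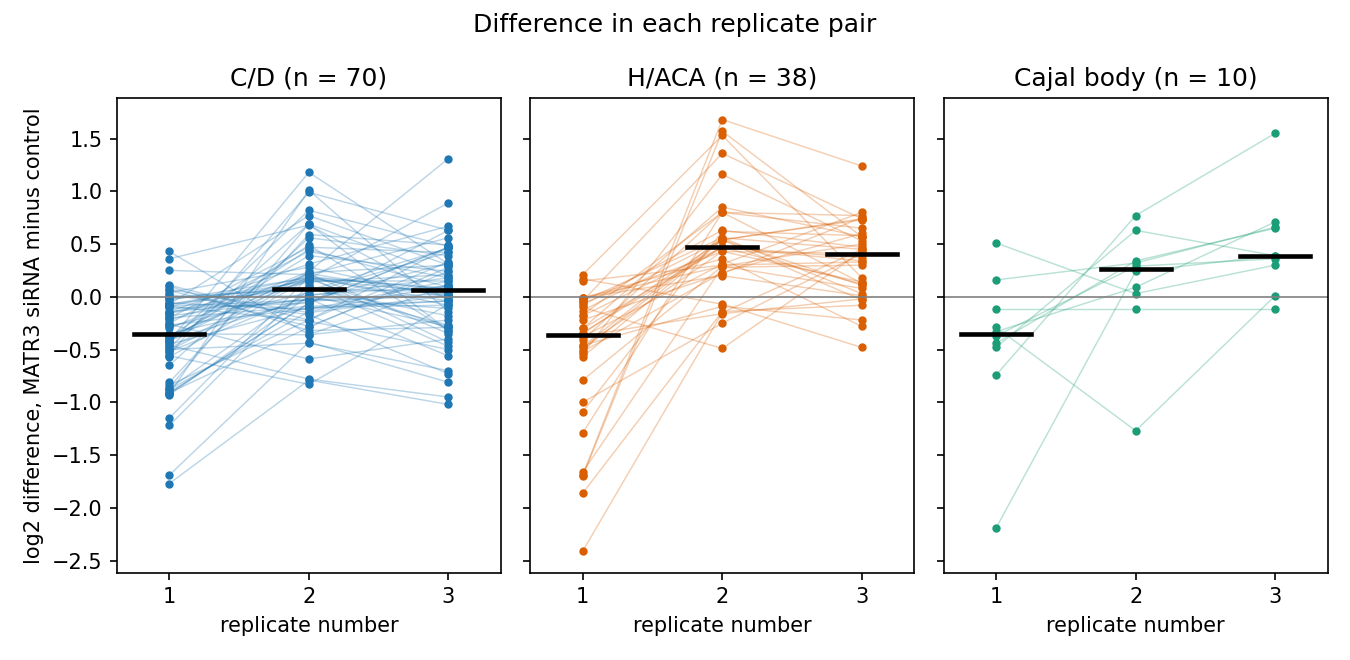
Log2 difference, MATR3 siRNA minus control (vertical axis), for each C/D, H/ACA and Cajal body member in replicate pairs 1, 2 and 3 (horizontal axis), with thin lines joining a member and black bars at the medians. H/ACA medians run from -0.36 in pair 1 to 0.47 and 0.41, and C/D medians from -0.35 to 0.08 and 0.06.

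SNORA12 showed the largest H/ACA difference above 0. Its signal was 9.99, 10.26 and 9.76 with MATR3 siRNA and 10.03, 8.90 and 9.02 in the controls, a difference of 0.69 ± 0.70 (adjusted p = 0.173), with overlap through the replicate 1 control. SNORA11 was at 9.43, 7.91 and 7.07 against 9.22, 6.38 and 6.89 (0.64 ± 0.77, adjusted p = 0.221), higher in all 3 pairs. SNORA54 was at 9.09, 8.64 and 8.44 against 9.26, 7.84 and 7.79 (0.43 ± 0.52).
The largest H/ACA differences below 0 rested on the replicate 1 control. SNORA65, which guides pseudouridylation of the large subunit RNA and lies in RPL12, was at 7.88, 7.21 and 7.91 with MATR3 siRNA and 10.29, 7.36 and 7.46 in the controls (-0.70 ± 1.51), and in replicates 2 and 3 its mean difference was 0.15. SNORA75, in the nucleolin gene NCL, was at 9.24, 8.39 and 8.23 against 11.10, 8.53 and 8.31 (-0.69 ± 1.01), and -0.11 in replicates 2 and 3. SNORA80E was at 7.44, 7.2 and 7.24 against 9.10, 6.92 and 6.94 (-0.36 ± 1.13), and 0.29 without replicate 1.

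The brightest H/ACA members had the same order of signs. SNORA48 was at 15.82, 16.10 and 15.84 with MATR3 siRNA and 16.12, 15.25 and 15.27 in the controls (0.37 ± 0.60, adjusted p = 0.339). SNORA22 was at 15.76, 16.00 and 15.67 against 16.11, 15.46 and 14.94 (0.31 ± 0.58). SNORA24, a guide of pseudouridylation in the small subunit RNA, was at 15.63, 15.45 and 15.65 against 15.85, 15.23 and 14.90 (0.25 ± 0.49). In each the control of replicate 1 exceeded its MATR3 siRNA partner and the other controls did not.
SNORA68 was at 13.21, 13.65 and 12.96 against 13.75, 12.49 and 12.43 (0.38 ± 0.86). SNORA74A lies in SNHG4, the noncoding gene beside MATR3, and so is next to the target. It was at 7.79, 7.43 and 7.87 with MATR3 siRNA and 8.17, 7.12 and 7.07 in the controls, a difference of 0.24 ± 0.59 (adjusted p = 0.539).

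None of the 10 Cajal body RNAs passed the test with the array set as block, and 2 had an unadjusted p under 0.05 (20%, against 23.8% of all clusters). SCARNA2 was at 10.40, 8.88 and 9.31 with MATR3 siRNA and 10.24, 8.56 and 8.65 in the controls, higher in all 3 pairs by 0.38 ± 0.26 (adjusted p = 0.160). SCARNA17 was at 12.66, 10.97 and 11.13 against 12.15, 10.94 and 10.83 (0.28 ± 0.24, adjusted p = 0.152) and was also higher in all pairs. At exon level its probe sets disagreed, with differences of 0.50, 0.41, 0.00 and 0.02. Those at 0.00 and 0.02 were lower in pairs 2 and 3. SCARNA2 and SCARNA17 were the Cajal body RNAs whose gene-level pairs ran in 1 direction above 0 with replicate 1 included.
SCARNA12, which lies in PHB2, was at 12.64, 11.02 and 11.73 against 12.93, 12.29 and 11.72 (-0.52 ± 0.67), with the largest gap in pair 2. SCARNA7 was at 12.95, 11.83 and 12.18 against 13.28, 11.74 and 11.47 (0.16 ± 0.52). SCARNA10 was at 8.71, 8.46 and 8.90 against 9.45, 7.69 and 7.35 (0.53 ± 1.16). SCARNA4 was at 7.90, 7.33 and 6.82 against 10.09, 7.09 and 6.43 (-0.52 ± 1.45). In SCARNA10 and SCARNA4 the replicate 1 pair had the opposite sign to the other pairs.
SCARNA9L, a copy on the X chromosome, was at 10.66, 10.79 and 10.70 against 10.78, 10.91 and 10.82. It was 0.12 lower in each pair, and this small difference did not pass (adjusted p = 0.257).

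The SNORD116 and SNORD115 copies are clustered repeats of the imprinted region of chromosome 15, in introns of the long noncoding host SNHG14. Loss of the paternal SNORD116 copies is linked to Prader-Willi syndrome, and SNORD115 is known from neurons, where it has a match to the serotonin receptor 2C RNA. Of 19 SNORD116 symbols 11 were members, and of 31 SNORD115 symbols none was: the SNORD115 means ran from 3.13 to 6.13, with a median of 4.07, all under the highest background probe set.
The 11 SNORD116 members had a median difference of 0.06, within a range of -0.05 to 0.23, and none was called. SNORD116-15 was at 15.82, 15.05 and 14.95 with MATR3 siRNA and 15.91, 15.08 and 14.63 in the controls (0.07 ± 0.22, adjusted p = 0.787). SNORD116-18 was at 15.72, 15.08 and 14.85 against 15.94, 14.90 and 14.89 (-0.03 ± 0.20, adjusted p = 0.884). The values of both siRNA groups lay over each other, and both replicate 1 samples were the high ones.
SNORD116-16 was at 8.24, 8.13 and 7.70 against 8.44, 7.66 and 7.28 (0.23 ± 0.37), the largest difference of the array. SNORD116-24 was at 14.01, 12.77 and 13.13 against 14.12, 12.83 and 12.50 (0.15 ± 0.41), and SNORD116-14 was at 13.76, 11.95 and 11.83 against 13.90, 11.98 and 11.80 (-0.05 ± 0.09). The pair medians were -0.09, 0.07 and 0.11. Median centring turned the median of the copies to -0.01, so their direction depends on the scaling. The C/D RNAs outside the array had a median of -0.10, with 38 of 59 below 0. The copies are near-identical and share a host transcript, so they are not independent, and probes of one may read another.

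**Figure D4:**
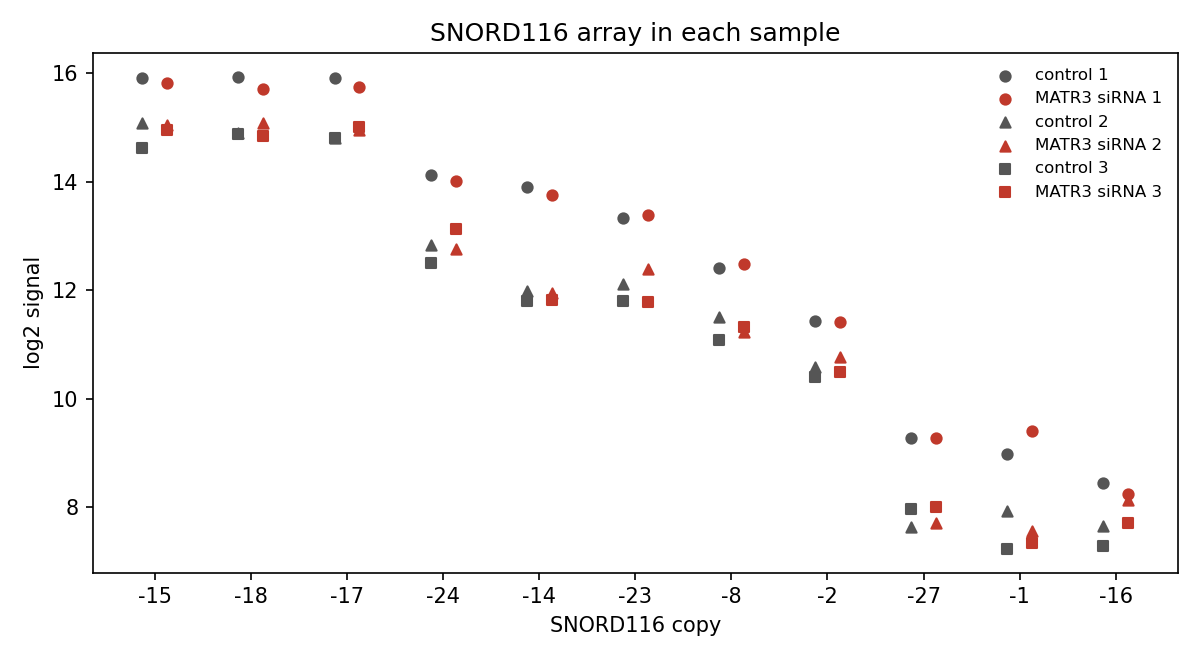
Log2 signal (vertical axis) of the 11 SNORD116 members (horizontal axis, by copy number in order of mean signal) in each of 6 samples, controls in grey and MATR3 siRNA in red, with a marker shape per replicate. Circles of both colours lie highest for every copy, and differences between the groups stay within -0.05 to 0.23.

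The proteins that carry, build or trim these RNAs were looked up on a list of 37 genes, of which 34 were measured. Dyskerin (DKC1), NOP56 and SMN1 were the ones not measured. The 34 measured genes had a median difference of 0.04, with 25 above 0 and 9 below 0. With the array set as block 1 was called (2.94%, against 3.48% of all clusters). An unadjusted p under 0.05 was found for 11 (32.4%, against 23.8%). The call was NOLC1, a nucleolar and Cajal body protein that binds both kinds of particle. It was at 12.03, 11.04 and 11.12 with MATR3 siRNA and 12.34, 11.68 and 11.55 in the controls. It was lower in all 3 pairs by 0.46 ± 0.17 (adjusted p = 0.038, and 0.092 with the replicate block), though the groups overlapped. The C/D core proteins fibrillarin (FBL, 0.13 ± 0.06, adjusted p = 0.206) and NOP58 (-0.09 ± 0.10, adjusted p = 0.400) did not pass, nor did the H/ACA core protein NOP10 (0.01 ± 0.13). The 3′ trimming nuclease PARN (0.21 ± 0.06, adjusted p = 0.084) and the debranching enzyme DBR1 (0.21 ± 0.11, adjusted p = 0.107), which opens intron lariats, were higher in all 3 pairs without passing. This is not particular to them: 9 of the 34 genes were higher in all 3 pairs, GEMIN2, MPHOSPH10, IMP3 and SNU13 among them, and 5 were lower in all 3. Of the 15209 clusters 4094 were higher and 2188 lower in all 3 pairs.

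By gene spans, 109 of the 118 members lie within a host gene and 9 do not. There are 76 hosts, and 43 of them, with 55 members, had a measured cluster of their own. The median size of the difference was 0.25 over those members and 0.07 over the 43 hosts, and 41 of 55 members differed by more than their host. The pair differences of members also scattered more, with a median SD of 0.40 over the 118 against 0.12 over all clusters. What part this scatter had in the larger member differences was not tested. Across the 43 hosts, each paired with the mean of its members, Pearson's r was -0.07 and Spearman's rho was -0.15. This is across genes on the same 6 arrays, so it is a description only. The members' pair medians were -0.41, 0.29 and 0.30 and the hosts' were 0.04, -0.02 and 0.06, so the turn between pair 1 and the others was seen in the small RNAs and not in the medians of their hosts.
HSPA9 differed by 0.02 ± 0.09 where SNORD63 differed by -1.19 ± 0.51, and RC3H2 by 0.06 ± 0.10 where SNORD90 differed by -0.98 ± 0.65. TNPO2 differed by 0.02 ± 0.11, against 0.34 ± 0.19 for SNORD41. CWF19L1 differed by -0.12 ± 0.11, against 0.69 ± 0.70 for SNORA12. HSPA8 and SNHG19, the hosts of the 2 members called, were not on clusters with 1 symbol and were not read.
Of the 43 measured hosts 2 were called with the array set as block (4.65%, against 3.48% of all clusters). EIF1AX, a translation initiation factor gene, was lower by 0.59 ± 0.13 (adjusted p = 0.020, and 0.063 with the replicate block), beside a gene-level difference of -0.12 for SCARNA9L. At exon level the 3 probe sets of SCARNA9L differed by -0.47, -0.42 and -0.08, none of them called. ZBED3 was higher by 0.30 ± 0.03 (adjusted p = 0.047, and 0.098 with the replicate block) with SNORA47 at 0.26, but its mean signal of 6.59 was under the highest background probe set.
Of the 20 hosts with several members, 10 had members that lay within 0.15 of each other, such as GAS5 at 0.12 and 0.14. The widest ranges were those of ZFAS1, whose 3 members ran from -0.30 to 0.33, and of NCL, whose 3 ran from -0.69 to -0.09. The spreads of those members overlapped, and differences between members of 1 host were not tested.

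**Figure D5:**
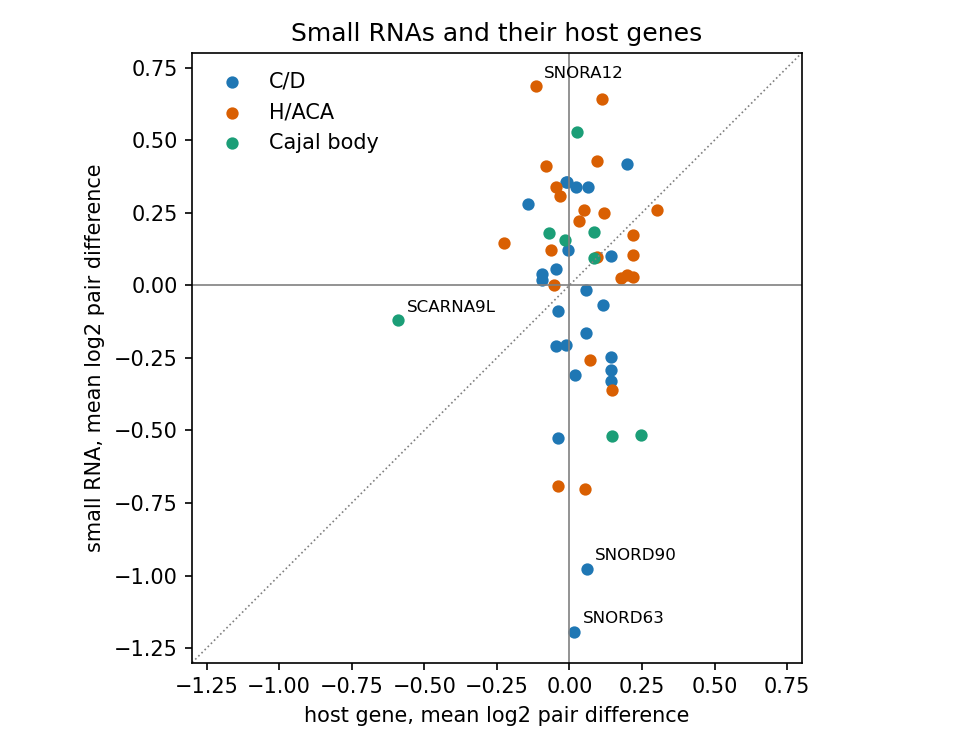
Mean log2 pair difference (MATR3 siRNA minus control) of 55 members (vertical axis) against that of their host gene (horizontal axis), coloured by class, with a dotted line where both are equal. Hosts lie mostly near 0 while members spread from -1.19 to 0.69.

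The exon-level table gave the same arrays in smaller units. It held 143 probe sets for the 118 symbols, and 112 symbols had just 1. Of 370991 probe sets tested none was called with the array set as block (0%), and so none of the 143, of which 5 had an unadjusted p under 0.05. The sign was that of the gene level in 140 of 143. SNORD60 and SNORD14D had 1 probe set each with the same values as their clusters, and adjusted p was 0.389 and 0.381 there. Both tables come from the same arrays, so the second gives no independent measurement.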

How the data were processed

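Total RNA of SH-SY5Y cells was measured on 6 arrays, 3 per siRNA, each given at gene level and exon level. The deposited values are log2 signals that the authors made with Affymetrix Expression Console and RMA, per the submitters' processing notes, with versions and annotation release not given in the sources used here. Both tables share 2995 features with identical values and were never pooled. Arrays give no read depth, and their number limits the precision.

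Clusters with 1 symbol (23781 of 67528) were named from the deposited annotation, updated through the gene identifier, and 1543 with several symbols were left unnamed. The members, the lists and the array set block were chosen with earlier results of these data known. limma 3.58.1 in R 4.3.3 (lmFit and eBayes, two-sided, Benjamini-Hochberg adjustment over all clusters tested, threshold 0.05) was run on clusters at or above the median of all clusters, without a block on all of them, and with the array set as block on those with 1 symbol. Simulated data with known changes were used to test the script. Unless another fit is named, an adjusted p is that of the array set fit, and a difference is the mean ± SD of 3 pair differences, MATR3 siRNA minus control of the same replicate number. Deviations from the group means of same-numbered samples correlated at 0.721, 0.340 and 0.474, each over 0.1, and on that ground the samples were treated as paired. This check cannot show that they are pairs. Replicate 1 stands apart in both groups, which raises all these values in any case, and samples of different number were not compared. Pair differences are therefore differences by replicate number. Members named with values were, per class, the 4 brightest, the 3 largest differences each way, every member called, RNAs of ribosomal RNA cleavage, SNORA74A, and for SNORD116 the 2 brightest and the 2 largest differences each way. Of the protein genes the rule gave the call, NOLC1, and FBL, NOP58, NOP10, PARN and DBR1 were added after their values were seen. SNORD115 was described by its range. Hosts are the smallest RefSeq gene whose span holds the member, with strand not used. Host starts are from RefSeq (GRCh38.p14). Sequences of the members were not analysed here.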

Additional observations from a re-analysis of the deposited data

How the results depend on the processing

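The class medians stayed within 1 SD of their 3 pair medians, a wide margin that lets their sign turn. Over the alternatives run the members' median ranged from -0.10 to 0.19 (opposite sign in 4 of 16), C/D from -0.13 to 0.08 (3, all without replicate 1 samples), H/ACA from -0.02 to 0.41 (1), Cajal body from 0.04 to 0.36 (0), SNORD116 from -0.01 to 0.13 (1) and the protein genes from -0.04 to 0.08 (1 of 15). Exon-level counts of calls stayed at 0. The other counts of calls moved. Over all clusters without a block (0 called), the array set or quantile normalization gave 1 and array weights 3194. With the array set as block (530 clusters, 2 members, 1 protein gene), the replicate block gave 8, 0 and 0, all clusters 1, 0 and 0, no block 0, 0 and 0, replicates 2 and 3 alone 0, 0 and 0, median centring 205, 4 and 0, array weights 3275, 15 and 9, a filter at the 75th percentile 973, 5 and 3, and no filter 124, 1 and 0. Array weights without a block called 15 members. With that setting, with median centring and with no filter, the share of members called was above the share of all clusters called. Leaving out 1 sample in turn gave 0 to 21 clusters, 0 to 0 members and 0 to 0 protein genes. A level of 8, or every cluster of a symbol (chosen after seeing the data), gave 2 members. SNORD63 and SNORD90 were called under median centring, array weights and the 75th percentile filter, and SNORD41 under the last 2 of these. SNORD90 met the member level only through the controls, so its calls are tied to the selection and lend no weight. The causes were not tested. Among single members and genes 541 values kept their direction and side of the threshold, 12 passed it, 21 lost it and 41 turned sign with no call on either side, 9 of these in replicates 2 and 3 alone (SNORA65, SNORA80E, SCARNA4 and SNORD3A among them). The search for a C box in the members' first bases was not run.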
